A study of Mus musculus with 9 samples.

Results

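The 10 genes described here carry out class I antigen presentation: the heavy chains H2-K1 and H2-D1, their light chain B2m, the peptide transporter subunits Tap1 and Tap2, the loading factor Tapbp, the immunoproteasome subunits Psmb8, Psmb9 and Psmb10, and the class I transactivator Nlrc5. They were chosen by name among the 31232 genes of the deposited table, with earlier results of these data known. The counts of calls below therefore describe these genes and are not an independent test. All 10 were among the 15774 genes with enough counts to be tested. Levels were measured by RNA sequencing in bEnd.3, an endothelial cell line from mouse brain that carries the polyoma middle T oncogene, grown on glass coverslips and exposed to flow in a parallel-plate chamber. Vortex cells were under vortex flow at a shear of 0.5 to 2 dyne/cm2, HSS cells under laminar flow at 20 dyne/cm2 and PSS cells under laminar flow at 10 dyne/cm2. The labels set PSS as physiological shear, HSS as an early stage and Vortex as a late stage of intracranial aneurysm, and all groups were the same line, with no static culture among the samples analysed here. Each group had 3 libraries with 17407217 to 22965802 counts. The labels do not say that replicates were separate cultures, so p-values measure the spread between these libraries, which may be technical, and cultured cells of 1 line carry no blood, immune cells or vessel wall around them.

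Class I molecules show peptides from inside the cell to CD8 T cells. Proteasomes cut cytosolic proteins into peptides, the TAP transporter carries these into the endoplasmic reticulum, tapasin holds empty class I molecules at the transporter, and a heavy chain with beta-2 microglobulin takes the loaded peptide to the surface. Interferons and inflammatory cytokines induce these genes in endothelium, including the 3 immunoproteasome subunits that replace the constitutive catalytic subunits, and in part act through NLRC5, which works at class I promoters with the RFX, CREB and NF-Y factors.

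The promoters of both heavy chains, B2m and Tap1 are shown because these genes are the known targets of that regulation and their levels are compared below. The letters are the bases before each gene's start in RefSeq (GRCm38.p6), on the gene's strand, as an annotation of the promoters and not as a measurement in these cells. Capitals mark matches, on either strand, to TTTCNNTTC, also with 1 more T before the last C (an interferon-stimulated response element), GGGNNTTCC, also with 1 more T before the CC (a kappaB site), TGACG (the core of the site bound by CREB factors) and CCAAT (the NF-Y site). These spellings were chosen after the promoters had been read, and no matches overlapped. The promoter of H2-D1 lies at chr17:35262844-35263093 on the plus strand, that of H2-K1 at chr17:34000348-34000597 on the minus strand, that of B2m at chr2:122147437-122147686 on the plus strand, and the 225 bases between the starts of Tap1 and its divergent neighbour Psmb9 at chr17:34187331-34187555, shown on the strand of Tap1.
H2-D1: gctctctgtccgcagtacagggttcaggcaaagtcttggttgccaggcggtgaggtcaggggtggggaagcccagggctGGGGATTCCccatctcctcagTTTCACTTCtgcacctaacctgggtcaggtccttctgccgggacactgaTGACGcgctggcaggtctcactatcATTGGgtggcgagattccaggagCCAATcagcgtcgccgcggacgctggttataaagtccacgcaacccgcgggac
H2-K1: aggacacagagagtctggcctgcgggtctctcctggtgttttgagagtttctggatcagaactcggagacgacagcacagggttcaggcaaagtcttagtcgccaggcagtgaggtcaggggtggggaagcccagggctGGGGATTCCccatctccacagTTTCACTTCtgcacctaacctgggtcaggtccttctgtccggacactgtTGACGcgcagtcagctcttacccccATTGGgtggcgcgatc
B2m: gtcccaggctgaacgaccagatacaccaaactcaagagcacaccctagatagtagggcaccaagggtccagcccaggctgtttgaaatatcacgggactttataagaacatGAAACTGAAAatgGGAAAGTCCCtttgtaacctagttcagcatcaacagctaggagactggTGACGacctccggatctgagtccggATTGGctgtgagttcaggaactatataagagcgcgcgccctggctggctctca
Tap1: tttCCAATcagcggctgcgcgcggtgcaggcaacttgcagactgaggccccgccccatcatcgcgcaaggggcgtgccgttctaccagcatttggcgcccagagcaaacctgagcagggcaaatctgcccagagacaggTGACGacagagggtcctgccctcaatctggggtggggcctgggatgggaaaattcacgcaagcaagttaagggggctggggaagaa

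Of the 10 genes, 8 had an entry in the promoter table and H2-K1 had 2, of which the first was used. H2-D1 and H2-K1 held the same TTTCACTTC and GGGGATTCC, at -150 and -171 from the gene start in H2-D1 and at -90 and -111 in H2-K1, followed by TGACG at -101 and -41. B2m held GAAACTGAAA, the longer interferon-stimulated response element read on the other strand, at -139, the kappaB match GGAAAGTCCC at -126 and TGACG at -78, and Tap1 held TGACG at -86. Among the 8 promoters, 3 held the interferon-stimulated response element, 3 the kappaB site, 5 TGACG and 6 CCAAT. The windows of Tap1 and Psmb9 overlap, and the TGACG and CCAAT counted in each are the same sites. Among 32851 promoters these motifs stood in 8.82%, 5.99%, 17.8% and 33.8%. The spellings were chosen after the promoters shown had been read, so these shares cannot test an enrichment.

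Reads of near-identical class I genes can be assigned to the wrong gene, so shared sequence was measured first. In the annotated transcripts of GENCODE M21, 12.8% of the distinct 50-base windows of H2-D1 and 9.63% of those of H2-K1 also occurred in another gene, and at 100 bases 3.59% and 0.957% did. H2-D1 shared most with H2-Q1, which had 0 to 1 counts in Vortex, 0 to 2 in HSS and 0 in PSS libraries, and H2-K1 shared most with H2-Q10, which had 0 to 9, 0 to 3 and 0. Those relatives were at or near 0 in this table. H2-D1 shared 50-base windows with 168 other genes and H2-K1 with 25, and the rest of these were not looked up. Other class I genes were expressed, with H2-Q4 up to 705 and H2-T22 up to 4247 counts in a Vortex library. As the treatment of reads with several matches is not known, these counts do not show how many reads were misassigned. B2m and Psmb10 shared no 50-base window. Tapbp shared 23.2%, mostly with Gm19412 on the opposite strand, Psmb8 11.9%, mostly with Gm20496, Tap2 11.6%, mostly with Gm15821, Psmb9 4.19% and Tap1 3.33%, mostly with each other where their divergent transcripts overlap, and Nlrc5 0.339%. The strand setting and the treatment of reads with several matches are not given in the sources used here, so reads of these overlapping pairs cannot be told apart. The bEnd.3 line comes from BALB/c mice and the reference build from C57BL/6J mice, which carry another H2 haplotype, and the alignment of class I reads across that difference was not tested.

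Most of the presentation genes were higher in HSS and in Vortex cells than in PSS cells. In HSS against PSS, 7 of 10 rose, none fell and 3 did not pass at an adjusted p under 0.05 by the edgeR quasi-likelihood test, beside 7.87% of all tested genes called in either direction, 4.18% higher and 3.70% lower. Their median log2 fold change was 1.51, beside 0.00 over all tested genes. In Vortex against PSS, 7 of 10 rose, none fell and 3 did not pass, beside 13.4% of tested genes called, 8.33% higher and 5.03% lower. The median of the 10 was 1.60, beside 0.11 over all tested genes. Psmb8 is 1 of these 7 and had enough counts to be tested only through the Vortex libraries. In Vortex against HSS none of the 10 passed, beside 7.04% of tested genes called, 4.37% higher and 2.67% lower. There 3 (Psmb8, H2-D1 and Nlrc5) had an unadjusted p under 0.05, which was not counted over all tested genes. DESeq2 called 2 (Psmb8 and H2-D1), beside 2700 of the 15774 tested genes, and limma-voom 0, beside 1044. The HSS and PSS libraries did not overlap for 9 of the 10 genes, all higher in HSS, beside 29.9% of tested genes with that pattern. The Vortex and PSS libraries did not overlap for 8, all higher in Vortex, beside 15.6%.

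**Figure D1:**
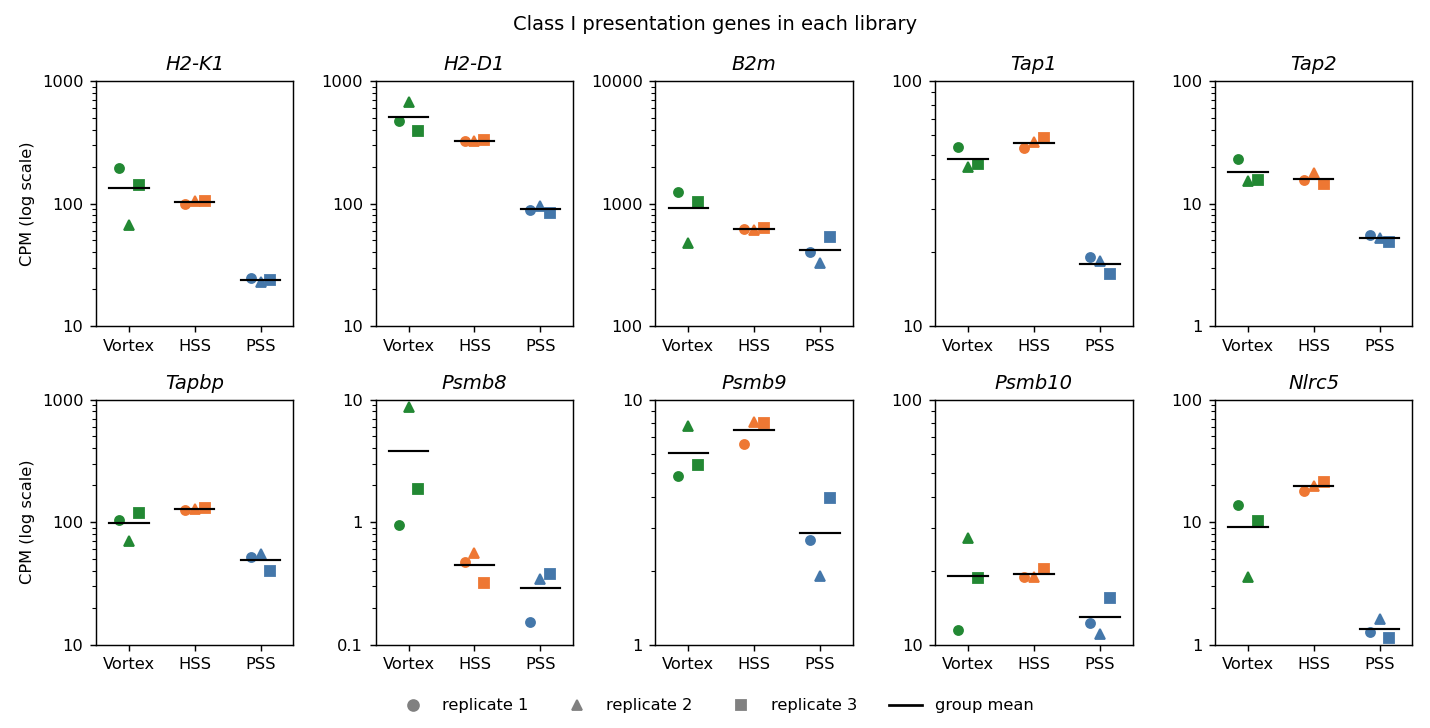
Level of each of the 10 genes in CPM (counts normalised to library size by TMM, log scale) in the 9 libraries, grouped as Vortex, HSS and PSS from left to right. Marker shapes give the replicate and black lines the group mean. The 3 HSS libraries lie above the 3 PSS libraries for every gene except Psmb8, and Vortex replicate 2 is the highest Vortex library for 4 genes and the lowest for 6.

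The Vortex libraries varied most among themselves, and Vortex replicate 2 stood apart from all others. The correlation of log2 CPM over all tested genes was 0.852 to 0.962 between Vortex libraries, 0.992 to 0.993 between HSS libraries and 0.977 to 0.992 between PSS libraries. Against the PSS mean, the median log2 difference in Vortex replicate 2 was -1.13 over the quartile of genes lowest in GC content and 0.83 over the highest quartile. In Vortex replicate 3, the next most tilted library, these medians were -0.32 and 0.24. Of the 10 genes, Vortex replicate 2 was the highest Vortex library for H2-D1, Psmb8, Psmb9 and Psmb10, whose annotated GC content was 52.49 to 56.52%, and the lowest for the other 6, at 41.16 to 57.14%. It was the highest or lowest Vortex library in 87.5% of all tested genes. Without it, 8 of the 10 genes rose and none fell in HSS against PSS, beside 29.1% of tested genes called, 15.4% higher and 13.7% lower. Without it, 9 rose and none fell in Vortex against PSS, beside 36.3% called, 19.7% higher and 16.6% lower, and the gene that did not pass was Psmb10. Calls of the 10 genes and counts over the gene lists that change when this library is left out are given both ways.

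H2-K1 and H2-D1, the classical class I heavy chains that hold the peptide, rose in both HSS and Vortex cells. H2-K1 (ENSMUSG00000061232) had 193, 66.8 and 141 CPM in Vortex replicates 1, 2 and 3, 99.4, 104 and 104 CPM in HSS, and 24.5, 22.96 and 23.97 CPM in PSS. H2-D1 (ENSMUSG00000073411) had 472, 669.5 and 394 CPM in Vortex, 323, 324 and 333 CPM in HSS, and 89.3, 95.3 and 84.4 CPM in PSS. Neither gene's HSS or Vortex libraries overlapped its PSS libraries. In HSS against PSS, H2-K1 rose by a log2 fold change of 2.11 ± 0.34 (SE, 4.31-fold, adjusted p = 0.00766) and H2-D1 by 1.87 ± 0.21 (3.64-fold, adjusted p = 0.00214). Between Vortex and PSS, H2-K1 rose by 2.49 ± 0.34 (5.61-fold, adjusted p = 0.00443) and H2-D1 by 2.51 ± 0.22 (5.71-fold, adjusted p = 0.00184). Both passed with any of the 9 libraries left out. Per transcript length, H2-K1 stood at 0.360, 0.0875 and 0.314 of the FPKM (fragments per kilobase of transcript, scaled to the library total) of H2-D1 in Vortex replicates 1, 2 and 3, at 0.270, 0.282 and 0.275 in HSS and at 0.241, 0.211 and 0.249 in PSS. The share was highest in Vortex replicate 1 and lowest in Vortex replicate 2, so both heavy chains were above their PSS levels in every Vortex library, but in different proportions.

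**Figure D2:**
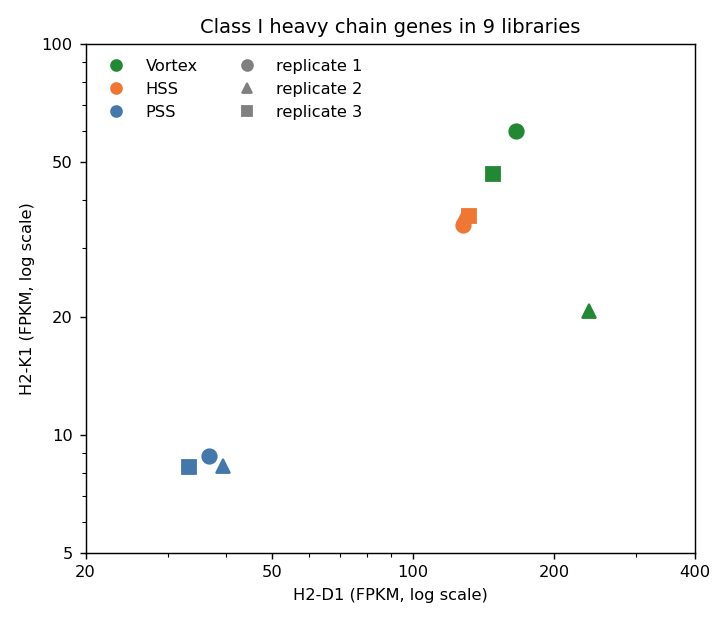
H2-K1 against H2-D1 in FPKM (both axes log scale), 1 point per library, coloured by group with the replicate as marker shape. The 3 PSS libraries lie at the lower left, the 3 HSS libraries close together above them, and Vortex replicate 2 lies off the line of the others, with the highest H2-D1 and an H2-K1 level below those of HSS.

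B2m, the light chain that every class I heavy chain needs to fold and reach the surface, was already abundant under PSS. B2m (ENSMUSG00000060802) had 1243, 474 and 1021 CPM in Vortex, 624, 606 and 635 CPM in HSS, and 400.4, 325 and 535 CPM in PSS. All HSS libraries lay above all PSS libraries, while Vortex replicate 2 lay within the PSS range. The log2 fold change was 0.56 ± 0.33 in HSS against PSS (adjusted p = 0.347) and 1.12 ± 0.33 in Vortex against PSS (adjusted p = 0.0544), so neither passed. Without Vortex replicate 2 both passed, at 0.56 (adjusted p = 0.0345) in HSS against PSS and 1.43 (adjusted p = 0.000411) in Vortex against PSS. The FPKM of B2m was 5.81, 1.95 and 5.91 times that of both heavy chains together in Vortex, 4.56, 4.37 and 4.49 times in HSS, and 10.8, 8.45 and 15.2 times in PSS. This ratio was thus lower in all 6 HSS and Vortex libraries than in any PSS library.

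The transporter subunits Tap1 and Tap2, which together form the pump that moves peptides into the endoplasmic reticulum, rose in both HSS and Vortex cells and stayed closest of the 10 to their mean pattern. Tap1 (ENSMUSG00000037321) had 53.8, 44.7 and 46.0 CPM in Vortex, 53.0, 56.5 and 58.6 CPM in HSS, and 19.1, 18.4 and 16.3 CPM in PSS. Tap2 (ENSMUSG00000024339) had 22.96, 15.4 and 15.5 CPM in Vortex, 15.7, 17.8 and 14.3 CPM in HSS, and 5.51, 5.25 and 4.88 CPM in PSS. For both subunits the HSS and Vortex ranges overlapped each other and lay above every PSS library. Tap1 rose by 1.64 ± 0.17 on the log2 scale in HSS against PSS (3.12-fold, adjusted p = 0.00158) and by 1.42 ± 0.17 in Vortex against PSS (2.68-fold, adjusted p = 0.00314). Tap2 rose by 1.61 ± 0.23 in HSS against PSS (3.06-fold, adjusted p = 0.00498) and by 1.78 ± 0.23 in Vortex against PSS (3.43-fold, adjusted p = 0.00394). All these calls held with any 1 library left out.

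Tapbp, which encodes tapasin, the bridge between TAP and empty class I molecules, rose in both comparisons with PSS, but its calls depended on single libraries. Tapbp (ENSMUSG00000024308) had 103, 70.3 and 119 CPM in Vortex, 124, 127 and 130.2 CPM in HSS, and 51.7, 55.3 and 39.8 CPM in PSS. The HSS libraries were the highest, the PSS libraries the lowest, and the groups did not overlap. Tapbp rose by 1.38 ± 0.23 on the log2 scale in HSS against PSS (2.60-fold, adjusted p = 0.00901) and by 0.99 ± 0.23 in Vortex against PSS (1.99-fold, adjusted p = 0.0221). The first call was lost without HSS replicate 3 or PSS replicate 1 (adjusted p = 0.0508 each), and the second without any 1 HSS or PSS library or Vortex replicate 3 (adjusted p of 0.0521 to 0.0851).

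The 3 immunoproteasome subunits, which replace the catalytic subunits of the standard 20S core, did not share 1 pattern. Psmb9 (ENSMUSG00000096727), which replaces Psmb6, had 4.86, 7.81 and 5.43 CPM in Vortex, 6.55, 8.07 and 8.00 CPM in HSS, and 2.68, 1.90 and 3.98 CPM in PSS. Psmb10 (ENSMUSG00000031897), which replaces Psmb7, had 11.5, 27.1 and 18.7 CPM in Vortex, 18.8, 18.9 and 20.4 CPM in HSS, and 12.3, 11.04 and 15.5 CPM in PSS. Psmb8 (ENSMUSG00000024338), which replaces Psmb5, had 15, 182 and 38 counts in Vortex (0.946, 8.67 and 1.88 CPM), 10, 10 and 6 counts in HSS (0.472, 0.561 and 0.316 CPM), and 3, 7 and 8 counts in PSS (0.152, 0.341 and 0.379 CPM). Psmb9 was higher in every HSS and Vortex library than in any PSS library, Psmb10 was so in HSS but not in Vortex, and Psmb8 was near the limit of detection outside the Vortex group.

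Psmb9 rose by 1.40 ± 0.33 on the log2 scale in HSS against PSS (2.64-fold, adjusted p = 0.0350) and stood at 1.08 ± 0.33 in Vortex against PSS (adjusted p = 0.0593). The first call was lost without any 1 HSS library, without PSS replicate 1 or 2 and without Vortex replicate 3 (adjusted p of 0.0574 to 0.151), while the second comparison passed without PSS replicate 3, Vortex replicate 1 or Vortex replicate 2 (adjusted p = 0.0480, 0.0478 and 0.0491). Psmb10 passed in neither comparison, at 0.58 ± 0.30 in HSS against PSS (adjusted p = 0.290) and 0.56 ± 0.30 in Vortex against PSS (adjusted p = 0.248). Psmb8 rose by 3.69 ± 0.84 in Vortex against PSS (adjusted p = 0.0222) and stood at 0.61 ± 0.87 in HSS against PSS (adjusted p = 0.739). Psmb8 had enough counts to be tested only through the Vortex libraries, where it was highest, so its call is not separate from that filter. Most of the Vortex reads of Psmb8 came from Vortex replicate 2, and without it the log2 fold change was 2.26 (adjusted p = 0.00806). Without PSS replicate 1, 2 or 3 the Psmb8 call was lost (adjusted p = 0.104, 0.0798 and 0.0789).

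The 3 constitutive catalytic subunits themselves did not pass in any comparison by edgeR, DESeq2 or limma-voom, and none had an unadjusted p under 0.05. Psmb5 stood at -0.24 ± 0.34, Psmb6 at -0.28 ± 0.24 and Psmb7 at -0.52 ± 0.30 on the log2 scale in HSS against PSS. Set against them per transcript length, the summed FPKM of Psmb8, Psmb9 and Psmb10 came to 5.84%, 7.64% and 8.60% of that of Psmb5, Psmb6 and Psmb7 in Vortex, 10.04%, 9.72% and 11.7% in HSS, and 5.15%, 5.25% and 4.87% in PSS. The 3 groups did not overlap, with HSS highest and PSS lowest. The mean log2 ratio differed by 1.04 between HSS and PSS, by 0.52 between Vortex and PSS and by -0.52 between Vortex and HSS. The smallest p that an exact two-sided permutation test allows with 3 libraries a group is 0.1, so no difference in this ratio could pass a threshold of 0.05. Averaging the log2 ratios of the 3 pairs instead turned the Vortex against HSS difference to 0.19. The pairs behind the sum differed: Psmb9 was 2.22%, 2.06% and 2.39% of Psmb6 in Vortex, 3.34%, 4.17% and 4.24% in HSS, and 1.23%, 0.893% and 1.45% in PSS. Psmb10 was 14.4%, 17.6% and 22.9% of Psmb7 in Vortex, 22.5%, 23.2% and 27.3% in HSS, and 12.5%, 12.2% and 10.02% in PSS. Psmb8 was 0.776%, 3.38% and 1.35% of Psmb5 in Vortex, 0.529%, 0.437% and 0.348% in HSS, and 0.117%, 0.419% and 0.246% in PSS. In the transcript pool of all 9 libraries the constitutive subunits thus remained above their immunoproteasome counterparts. By FPKM the Psmb8 and Psmb5 pair was the most unequal of the 3 in every library but Vortex replicate 2, where it was the Psmb9 and Psmb6 pair. This order and the percentages above rest on the lengths implied by the deposited FPKM. Those were 3381 bases for Psmb8 and 899 for Psmb5, 3660 for Psmb9 and 1872 for Psmb6, and 1705 for Psmb10 and 3421 for Psmb7. Whether these lengths match the transcripts made in these cells was not tested. By counts in Vortex replicate 3, Psmb9 and Psmb6 (110 and 2358) were more unequal than Psmb8 and Psmb5 (38 and 749).

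**Figure D3:**
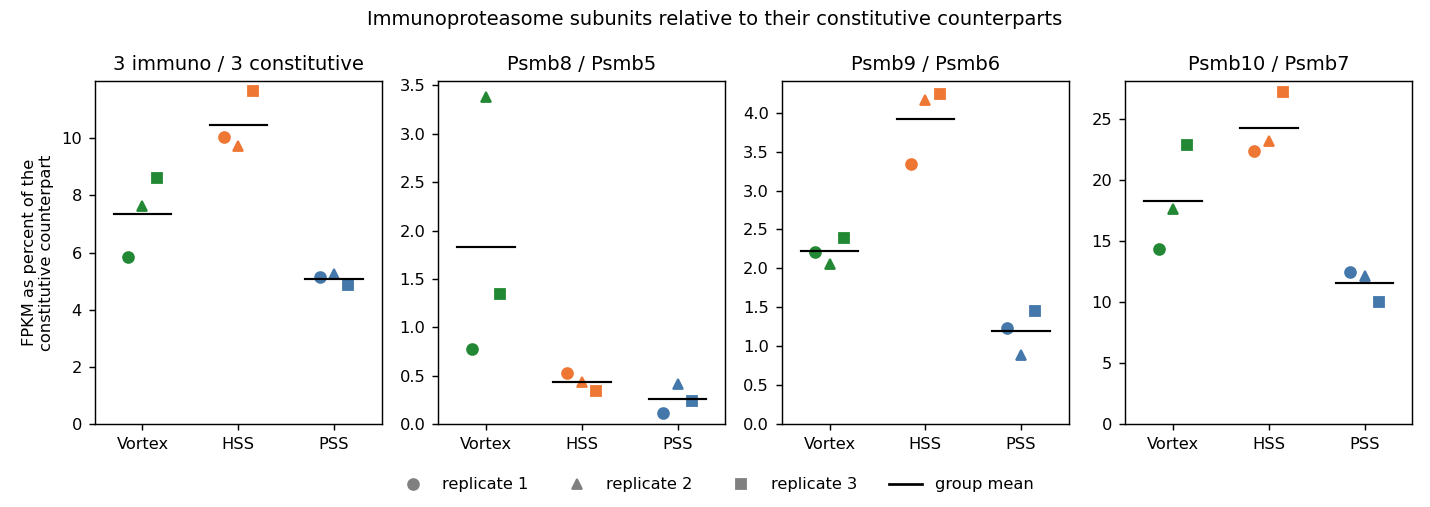
FPKM of immunoproteasome subunits as a percentage of their constitutive counterparts in each library, for the sum of 3 (left) and for each pair, with groups as Vortex, HSS and PSS from left to right. Marker shapes give the replicate and black lines the group mean, and each panel has its own axis from 0. The summed ratio is 9.72 to 11.7% in HSS, 5.84 to 8.60% in Vortex and 4.87 to 5.25% in PSS, while Psmb8 is highest in Vortex.

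Nlrc5, the transactivator of class I genes, showed the largest fold change of the 10 in HSS against PSS. Nlrc5 (ENSMUSG00000074151) had 13.7, 3.57 and 10.3 CPM in Vortex (217, 75 and 208 counts), 18.1, 19.5 and 21.3 CPM in HSS (383, 348 and 404 counts), and 1.26, 1.61 and 1.14 CPM in PSS (25, 33 and 24 counts). The 3 groups did not overlap, with HSS highest, Vortex between and PSS lowest. Nlrc5 rose by 3.87 ± 0.47 on the log2 scale in HSS against PSS (14.6-fold, adjusted p = 0.00283) and by 2.77 ± 0.45 in Vortex against PSS (6.83-fold, adjusted p = 0.00709), and both calls held with any 1 library left out. Its level per transcript length remained low, at 1.01 ± 0.558 FPKM in Vortex, 2.36 ± 0.193 FPKM in HSS and 0.165 ± 0.033 FPKM in PSS (SD, n = 3 each).

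**Figure D4:**
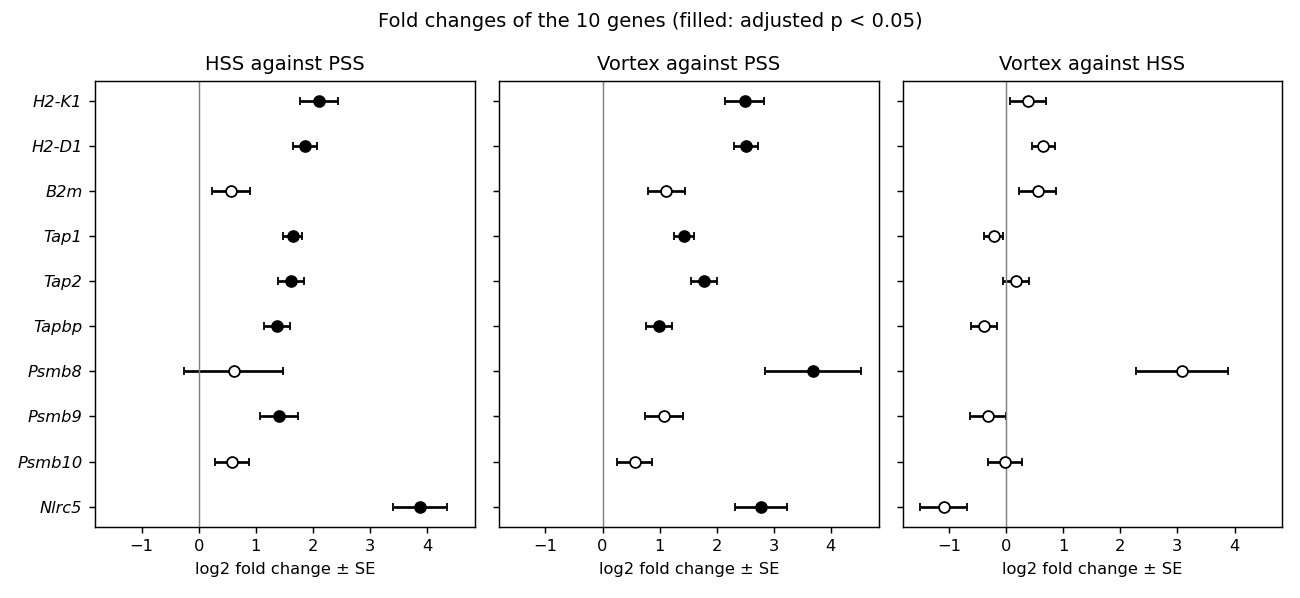
Log2 fold change ± SE of each gene in HSS against PSS, Vortex against PSS and Vortex against HSS (left to right), from the edgeR fit to all 9 libraries. Filled points passed at an adjusted p under 0.05: 7 in each comparison with PSS and none in Vortex against HSS. The SE of Psmb8, which had few counts, is the widest.

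Most calls of Vortex against PSS did not hold when the HSS libraries were left out of the fit, and the cause of this was not tested. When only the 6 Vortex and PSS libraries were fitted, H2-D1 alone passed (adjusted p = 0.0426), with the fold changes nearly unchanged and adjusted p-values of 0.0506 for H2-K1, 0.0514 for Tap2, 0.0516 for Tap1 and 0.0603 for Nlrc5. In that fit 74 genes were called in all, beside 2107 with all 9 libraries.

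Between Vortex and HSS the 10 genes did not move together. H2-D1 was higher in every Vortex library than in any HSS library, at 0.65 ± 0.20 on the log2 scale (adjusted p = 0.0859), as was Psmb8, at 3.08 ± 0.81 (adjusted p = 0.0522). Nlrc5 was lower in every Vortex library, at -1.10 ± 0.41 (adjusted p = 0.132), as was Tapbp, at -0.38 ± 0.22 (adjusted p = 0.309). Groups apart in this way made up 19.5% of tested genes for Vortex higher and 16.9% for Vortex lower, and the other 6 genes overlapped, with log2 fold changes of -0.32 to 0.55. Without Vortex replicate 2, 5 of the 10 passed: H2-K1 rose by 0.70 (adjusted p = 0.00768), B2m by 0.86 (adjusted p = 0.0108), H2-D1 by 0.41 (adjusted p = 0.0393) and Psmb8 by 1.65 (adjusted p = 0.0395), and Nlrc5 fell by 0.71 (adjusted p = 0.0289), beside 23.9% of tested genes called, 13.9% higher and 10.0% lower. Without Vortex replicate 1, Psmb8 rose by 3.51 (adjusted p = 0.0145) and Nlrc5 fell by 1.51 (adjusted p = 0.0455). Here too Psmb8 was tested only through the Vortex libraries, where it was highest, so its separation and calls are not separate from that filter.

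By level per transcript length, with the lengths implied by the deposited FPKM, B2m was first and H2-D1 second in all 3 groups. B2m averaged 988 ± 428 FPKM in Vortex, 739 ± 16.4 FPKM in HSS and 509.8 ± 115 FPKM in PSS, and H2-D1 averaged 184 ± 47.2, 129.5 ± 2.09 and 36.5 ± 3.08 FPKM (SD, n = 3). H2-K1, at 42.3 ± 19.8 FPKM in Vortex, 35.7 ± 0.999 FPKM in HSS and 8.49 ± 0.314 FPKM in PSS, and Tapbp, at 25.1 ± 6.98, 35.8 ± 0.841 and 14.2 ± 2.68 FPKM, came next. These neighbours were within their spread of each other in Vortex and HSS, as were H2-K1 and Psmb10 in PSS, Psmb10 and Tap1 in Vortex, and Nlrc5 and Psmb9 in HSS. Psmb10 averaged 10.4 ± 4.21, 11.6 ± 0.526 and 7.92 ± 1.19 FPKM, Tap1 8.17 ± 0.732, 10.46 ± 0.530 and 3.44 ± 0.365 FPKM, and Tap2 4.40 ± 0.978, 4.31 ± 0.487 and 1.45 ± 0.121 FPKM in Vortex, HSS and PSS in that order. Psmb9, Nlrc5 and Psmb8 were the lowest 3 in each group. Psmb8 was last at 0.136 ± 0.038 FPKM in HSS and 0.0896 ± 0.037 FPKM in PSS, while in Vortex its 1.045 ± 1.13 FPKM could not be ordered against Nlrc5 or Psmb9 within the spread.

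The genes kept to a common pattern across the 9 libraries to different degrees. The distance of each gene's centred log2 CPM from the mean of all 10, as a root mean square over 9 libraries, was 0.172 for Tap2, 0.186 for Tap1, 0.380 for Tapbp, 0.387 for H2-D1, 0.391 for Psmb9, 0.459 for H2-K1, 0.538 for B2m and 0.611 for Psmb10. It was 1.04 for Nlrc5 and 1.19 for Psmb8, the farthest of the 10. By the same measure, among other genes that averaged 5 CPM or more, the 5 nearest to the mean pattern were Slc11a2 (0.132), Rilpl2 (0.138), Cd82 (0.155), Mvp (0.161) and Ifnar2 (0.178). Ifnar2, a chain of the type I interferon receptor, had 20.5, 18.5 and 25.4 CPM in Vortex, 20.3, 24.05 and 20.8 CPM in HSS, and 5.61, 5.401 and 6.39 CPM in PSS. Slc11a2, a metal ion transporter, had 204, 144 and 174 CPM in Vortex, 167, 168 and 165 CPM in HSS, and 58.3, 59.3 and 52.7 CPM in PSS. All 9 libraries enter each of these distances, so library depth and composition are shared by the genes compared.

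Other genes of the pathway were read from lists written from general knowledge, beside the shares over all tested genes. These were 4.18% called higher and 3.70% lower in HSS against PSS, 8.33% and 5.03% in Vortex against PSS, and 4.37% and 2.67% in Vortex against HSS. Without Vortex replicate 2 the shares were 15.4% and 13.7%, 19.7% and 16.6%, and 13.9% and 10.0%. In the same order of comparisons, DESeq2 called 2456, 3489 and 2700 of the 15774 tested genes, and limma-voom 1167, 2103 and 1044. Genes at an unadjusted p under 0.05 were not counted over all tested genes, so those list counts have no share beside them. Of the 11 other subunits of the 20S core, none passed in any comparison by edgeR, DESeq2 or limma-voom, and their median log2 fold change was -0.48 in HSS against PSS and -0.13 in Vortex against PSS. An unadjusted p under 0.05 was found for 3 of the 11 in HSS against PSS, 0 in Vortex against PSS and 1 in Vortex against HSS, and without Vortex replicate 2, 5 fell in HSS against PSS, 2 fell in Vortex against PSS and none rose. Of 9 activator and assembly genes none passed in any comparison by edgeR, DESeq2 or limma-voom and none had an unadjusted p under 0.05, among them Psme1 at 0.04 ± 0.21 and Psme2 at 0.44 ± 0.22 in HSS against PSS, the subunits of the PA28 activator. Without Vortex replicate 2, Psme4, which encodes the activator PA200, rose by 0.52 (adjusted p = 0.0231), and the assembly factors Pomp and Psmg1 fell by 0.72 (adjusted p = 0.0158) and 0.56 (adjusted p = 0.0252) in HSS against PSS, and Psmg1 fell by 0.72 in Vortex against PSS (adjusted p = 0.0120). Of 17 subunits of the 19S regulatory particle, none passed in HSS against PSS, with 1 at an unadjusted p under 0.05 and 0 calls by DESeq2 or limma-voom, and 2 fell in Vortex against PSS, Psmd1 by 0.58 (adjusted p = 0.0443) and Psmd6 by 0.89 (adjusted p = 0.0407). Psmd8 rose by 0.81 in Vortex against HSS (adjusted p = 0.0422). With Vortex replicate 2 left out, 1 of these 17 fell in HSS against PSS, 8 fell in Vortex against PSS, and 1 rose and 3 fell in Vortex against HSS.

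Among 9 peptide trimming and loading partners, Tapbpl, the tapasin-related peptide editor, rose by 1.17 ± 0.23 on the log2 scale in HSS against PSS (adjusted p = 0.0182). It averaged 7.91 ± 1.66 CPM in Vortex, 12.5 ± 1.25 CPM in HSS and 5.57 ± 0.459 CPM in PSS (SD, n = 3). The other 8 did not pass, with Erap1, the aminopeptidase that trims peptides in the endoplasmic reticulum, at 0.67 ± 0.25 (adjusted p = 0.145), and the median of the 9 was -0.17 there and 0.25 in Vortex against PSS. None of the 9 passed in Vortex against PSS, where 0 had an unadjusted p under 0.05 and DESeq2 and limma-voom called 0. None passed in Vortex against HSS either, where 3 had an unadjusted p under 0.05, DESeq2 called 3 and limma-voom 0. With Vortex replicate 2 set aside, Erap1 rose at nearly the same fold change in HSS against PSS (0.67, adjusted p = 0.00745) and by 0.74 in Vortex against PSS (adjusted p = 0.00607). In that fit Sec61b, a channel subunit of the endoplasmic reticulum, fell by 0.51 in HSS against PSS (adjusted p = 0.0494). The chaperone Hspa5 rose by 1.13 in Vortex against PSS (adjusted p = 0.0156) and by 1.30 in Vortex against HSS (adjusted p = 0.0133), and the chaperone Calr rose by 0.38 in Vortex against HSS (adjusted p = 0.0455).

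Of 23 other class I and class I-like genes 19 were listed in the table and 14 tested, with a median log2 fold change of 0.32 in HSS against PSS and 1.01 in Vortex against PSS. In HSS against PSS 4 rose and none fell: H2-T10 (log2 fold change 3.33 ± 0.58, adjusted p = 0.0115), H2-M2 (2.71, adjusted p = 0.0354), H2-T22 (2.32, adjusted p = 0.0370) and H2-T24 (2.23, adjusted p = 0.0276). H2-T10 and H2-T22 are close relatives whose products bind gamma delta T cells, and reads shared between them make each value uncertain. H2-T10 averaged 37.9 ± 29.6 CPM in Vortex, 48.6 ± 2.25 CPM in HSS and 4.82 ± 0.825 CPM in PSS, with Vortex spread from 9.86 to 68.9 CPM. Set against PSS, 4 rose and none fell in Vortex: H2-M3 (1.44 ± 0.22, adjusted p = 0.00614), which presents formylated peptides, H2-Q4 (2.91 ± 0.46, adjusted p = 0.00622), H2-T23 (1.89 ± 0.33, adjusted p = 0.00826), the Qa-1 heavy chain, and H2-T10 (2.97, adjusted p = 0.0121). In Vortex against HSS Procr, the endothelial protein C receptor, a class I-like molecule of coagulation and not of presentation, rose by 1.93 (adjusted p = 0.0424). Without Vortex replicate 2 the counts of this list became 6 higher and 4 lower in HSS against PSS, 7 and 3 in Vortex against PSS, and 5 and 1 in Vortex against HSS. Over all tested genes the shares higher and lower in that fit were 15.4% and 13.7%, 19.7% and 16.6%, and 13.9% and 10.0%. With all 9 libraries the shares were 4.18% and 3.70%, 8.33% and 5.03%, and 4.37% and 2.67%.

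Class II genes, which present extracellular peptides to CD4 T cells, gave no call. Of 11 such genes 10 were listed and 4 tested, and none passed in any comparison. An unadjusted p under 0.05 was found for 2, 0 and 1 of the 4 in HSS against PSS, Vortex against PSS and Vortex against HSS, where DESeq2 called 1, 0 and 1 and limma-voom 0 in each. Ciita, the class II counterpart of Nlrc5, had 1 to 4 counts in Vortex, 0 to 3 in HSS and 1 to 3 in PSS libraries, and H2-Aa had 0 to 1, 0 and 0. Cd74, the invariant chain, averaged 1.24 ± 0.633 CPM in Vortex, 1.98 ± 0.0779 CPM in HSS and 0.769 ± 0.196 CPM in PSS. Leaving out Vortex replicate 2 gave 1 higher and 1 lower of the 4 in HSS against PSS and 1 higher in Vortex against PSS.

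Among 19 transcription factors known to act on class I promoters, 3 rose and 1 fell in HSS against PSS, and the list's median log2 fold change was 0.38 there and 0.38 in Vortex against PSS. Nfkb1 rose by 1.35 ± 0.21 on the log2 scale (adjusted p = 0.00653) and Stat2 by 1.84 ± 0.41 (adjusted p = 0.0298), and Irf8 fell by 2.38 (adjusted p = 0.0342). Nfkb1 rose by 1.10 (adjusted p = 0.0112) and Irf2 by 0.76 (adjusted p = 0.0295) in Vortex against PSS. In Vortex against HSS 2 rose and 1 fell, and the risers were Irf8, by 3.24 (adjusted p = 0.0166), and Nfya, by 0.85 (adjusted p = 0.0183). Irf1, the interferon regulatory factor of class I genes, stood at 0.62 ± 0.20 in HSS against PSS (adjusted p = 0.0967) and 0.29 ± 0.20 in Vortex against PSS (adjusted p = 0.368). In the same comparisons Irf7 stood at 2.62 ± 0.73 (adjusted p = 0.0621) and 2.47 ± 0.72 (adjusted p = 0.0535), with 8.58 to 123 CPM among Vortex libraries. The RFX partners of NLRC5 did not pass: in HSS against PSS Rfx5 stood at 0.56 ± 0.22, Rfxap at -0.16 ± 0.20 and Rfxank at -0.39 ± 0.29. Without Vortex replicate 2, Irf1 (0.62, adjusted p = 0.00597) and Rfx5 (0.56, adjusted p = 0.0410) passed in HSS against PSS at nearly the same fold changes, and in Vortex against HSS Irf1 fell by 0.51 (adjusted p = 0.0332) and Rfx5 by 0.68 (adjusted p = 0.0389). In that fit Irf7 passed in HSS against PSS (2.62, adjusted p = 2.09e-06) and in Vortex against PSS (3.00, adjusted p = 1.64e-06). It did not pass in Vortex against HSS (0.38, adjusted p = 0.103). In all, 9 of the 19 factors rose and 2 fell in that fit in HSS against PSS, 7 rose and 1 fell in Vortex against PSS, and 2 rose and 4 fell in Vortex against HSS, beside the shares given above.

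Of 14 interferons, receptor chains, kinases and feedback inhibitors, 12 were listed and 9 tested, with a median log2 fold change of 0.89 in HSS against PSS and 1.22 in Vortex against PSS. Under HSS 2 rose relative to PSS, Ifnar2 by 1.90 ± 0.21 on the log2 scale (adjusted p = 0.00195) and Ifngr2, a chain of the interferon gamma receptor, by 1.03 ± 0.17 (adjusted p = 0.00806). Under vortex flow 6 rose relative to PSS: Ifngr2 by 1.67 (adjusted p = 0.00220), Ifnar2 by 1.89 (adjusted p = 0.00242), Ifnar1 by 1.22 (adjusted p = 0.00500), the kinase Tyk2 by 1.12 (adjusted p = 0.0157), and the feedback inhibitors Socs3 by 2.30 (adjusted p = 0.0203) and Socs1 by 1.26 (adjusted p = 0.0233). In Vortex against HSS Ifnar1 rose by 1.00 (adjusted p = 0.0161) and Ifngr2 by 0.65 (adjusted p = 0.0491). Ifnb1, which encodes interferon beta, had 1 to 10 counts in Vortex, 2 to 5 in HSS and 2 in PSS libraries, too few to be tested. With Vortex replicate 2 left out, the counts were 6, 7 and 4 higher and none lower in HSS against PSS, Vortex against PSS and Vortex against HSS, beside the shares given above.

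**Figure D5:**
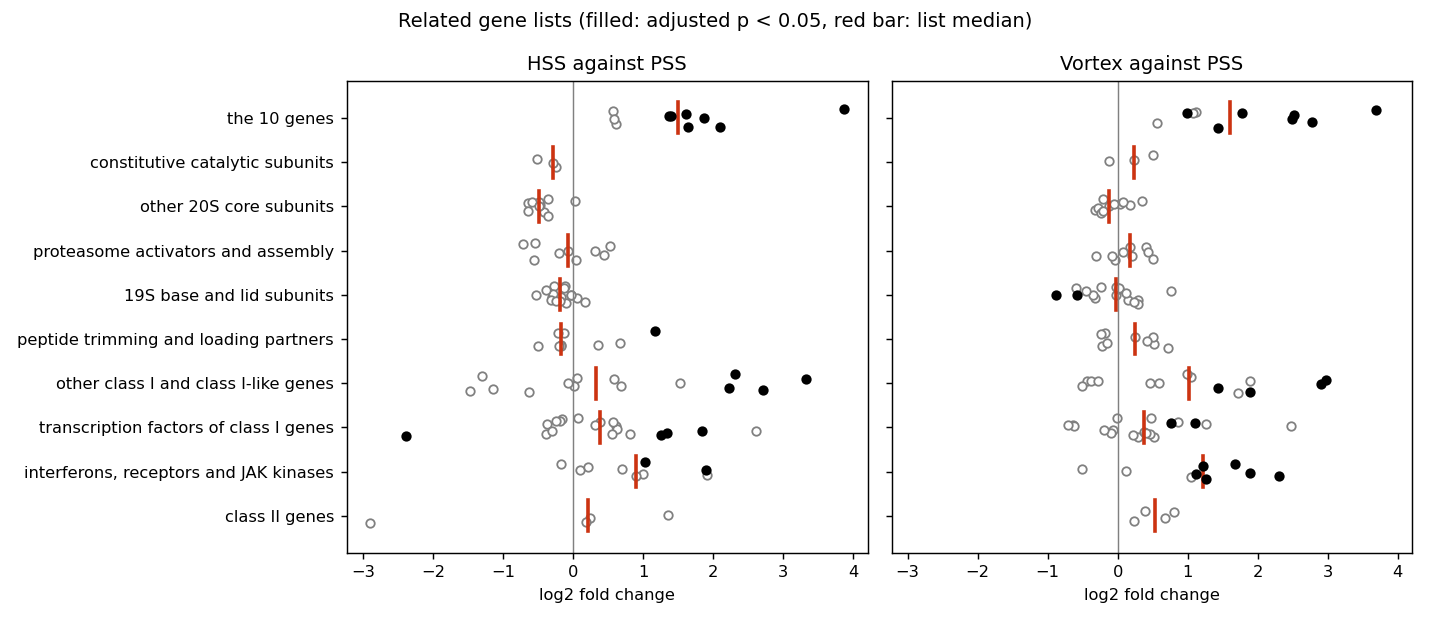
Log2 fold change of every tested gene in the 10 genes and 9 related lists, for HSS against PSS (left) and Vortex against PSS (right). Each point is a gene, filled where it passed at an adjusted p under 0.05, and red bars are list medians. The 10 genes have medians of 1.51 and 1.60, and the 20S and 19S proteasome lists lie near or below 0.

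Markers of the labelled cell type and of other cells moved between the groups too. None of the 12 endothelial markers was without a count in any group, but in HSS libraries Cldn5 had 0 to 2 counts and Erg 5 to 15. The summed level of the 12 was 898 to 7687 CPM in Vortex, 621 to 647 CPM in HSS and 2628 to 3356 CPM in PSS. In HSS, Eng, Tie1 and Cdh5 averaged 252, 205 and 122 CPM of it, and Pecam1 ranged from 28 to 30567 counts among Vortex libraries. In HSS against PSS 8 of the 12 fell and the groups did not overlap for any of them, all lower in HSS, beside 3.70% of tested genes called lower and 26.3% apart in that direction. None passed in Vortex against PSS. Without Vortex replicate 2, 11 fell in HSS against PSS, beside 13.7% of tested genes called lower. In that fit 11 fell in Vortex against PSS, beside 16.6%. In Vortex against HSS 9 of the 12 rose and none fell, beside 4.37% of tested genes called higher. Without Vortex replicate 2 these counts were the same, beside 13.9%. Of 11 leukocyte markers 9 were listed, with a summed level of 30.4 to 80.9 CPM in Vortex, 36.0 to 39.3 CPM in HSS and 11.1 to 12.6 CPM in PSS. Of the 4 tested, Csf1r and Cd14 rose in HSS against PSS and in Vortex against PSS, and Cd68 rose in Vortex against PSS. Over all tested genes 4.18% and 8.33% were called higher in these comparisons. In Vortex against HSS 1 of the 4 rose, beside 4.37%, and 2 rose without Vortex replicate 2, beside 13.9%. Ptprc, which marks all leukocytes, had 0 to 1 counts in any library and 0 in all Vortex libraries. The 6 dendritic cell markers summed to 27.9 to 81.4 CPM in Vortex, 12.7 to 14.8 CPM in HSS and 39.9 to 43.5 CPM in PSS. Of this sum Zbtb46 alone had 16.0 to 64.0 CPM in Vortex and 27.5 to 31.6 CPM in PSS. Of the 3 tested, Clec9a and Zbtb46 fell in HSS against PSS (adjusted p = 0.00546 and 0.0359). Batf3 rose (adjusted p = 0.0310) and Clec9a fell (adjusted p = 0.0401) in Vortex against PSS, and 1 rose in Vortex against HSS. Without Vortex replicate 2, 1 rose and 2 fell in Vortex against PSS, and 3 rose in Vortex against HSS. The shares over all tested genes in both fits are those given above. The 9 fibroblast and pericyte markers summed to 62.9 to 658 CPM in Vortex, 354 to 370.4 CPM in HSS and 289.7 to 364 CPM in PSS. Of the 8 tested, only Kcnj8 passed, rising by 2.95 on the log2 scale in Vortex against PSS (adjusted p = 0.0295). Without Vortex replicate 2, 9 were tested. In that fit 2 rose and 2 fell in HSS against PSS, 4 rose and 1 fell in Vortex against PSS, and 2 rose and 1 fell in Vortex against HSS. The part of these shifts in the class I values was not tested, and in RNA from whole cultures a changed share of cells and a changed amount of RNA per cell cannot be told apart.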

How the data were processed

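Polyadenylated RNA of 9 bEnd.3 libraries was sequenced. RNA came from TRIzol extraction, was described as mixed, and entered a NEBNext Ultra kit at 1.5 µg per sample, per the labels' protocols. HISAT2, HTSeq 0.13.5 and build GRCm39 are named in the submitters' processing notes. The authors deposited 1 table with whole-number counts per gene and library, not normalized, and FPKM, which the authors scaled by length and library total: in 100% of genes the 2 measures implied 1 length within a relative tolerance of 1e-06. Groups follow the labels.

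Counts were fitted in R 4.3.3 with edgeR 4.0.16: genes kept by filterByExpr (15774 of 31232), TMM scaling, 1 mean per group over all 9 libraries, robust quasi-likelihood F tests, and Benjamini-Hochberg adjustment over all tested genes, called under 0.05. The biological coefficient of variation was 0.350. The SE was derived as |log2 fold change| / √F. The test was run on simulated counts drawn with the spread of this fit. They held no outlying library, so this check does not cover a library such as Vortex replicate 2. CPM uses TMM-scaled totals, and log2 CPM a prior count of 2. Counts of features limit precision: intervals are not given for single libraries.

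DESeq2 1.42.0, limma 3.58.1, other scalings, filters, a replicate block, fits to 6 libraries and leaving out each library were tried, and a correction for GC content (98.47% of tested genes had a value) and the list counts without Vortex replicate 2 were added after seeing the data. The members and lists were chosen with earlier results of these data known. Named genes are all members, the 5 of nearest pattern, and in each list some of the genes called, some of the 3 of smallest p and some others. The values of 1 listed gene are not reported here. Promoters and motifs came from RefSeq (GRCm38.p6), and shared windows from GENCODE M21 transcripts.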

Additional observations from a re-analysis of the deposited data

How the results depend on the processing

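Of the gene results in HSS against PSS, 193 kept their direction and side of the threshold across alternatives, 10 lost a call and 5 gained one. In Vortex against PSS these counts were 177, 23 and 8 and 1 reversed, and in Vortex against HSS 187 kept, 18 gained and 4 reversed. The number of the 10 genes called was 5 to 8, 5 to 9 and 0 to 5 with 1 library left out, in HSS against PSS, Vortex against PSS and Vortex against HSS. In Vortex against PSS 1 was called with the 6 compared libraries alone; in Vortex against HSS 2 were called by the DESeq2 Wald test, 2 with the GC trend removed, 1 on log2 FPKM with a pseudocount of 1 and 1 with no filter, while limma-voom called 0.

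Genes called over the whole table were 1242 in HSS against PSS, and 2456 by DESeq2, 6233 with 6 libraries, 772 with the replicate block and 285 to 4730 with 1 library left out. They were 2107 in Vortex against PSS, and 3489, 74, 1258 and 519 to 5888 under the same alternatives. They were 1111 in Vortex against HSS, and 2700, 66, 357 and 25 to 3887, with 713 without a filter. With the GC trend removed and without Vortex replicate 2 they were 4789, 6015 and 4246. The cause of these shifts was not tested. The same replicate numbers did not pair the samples: correlations of same-numbered deviations were -0.12 to 0.12, and under the block Psmb9 in HSS against PSS (adjusted p = 0.0695) and Tapbp in Vortex against PSS (adjusted p = 0.0605) were lost, leaving 6, 6 and 0 of the 10.

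The median of all genes in Vortex against PSS was 0.11 with TMM, -0.06 with library totals and -0.15 on log2 FPKM with a pseudocount of 0.1, and the calls split into 1314 higher and 793 lower, 835 and 1165, and 746 and 1379. Reversed values were all small: Psmb10 in Vortex against PSS was -0.033 with the GC trend removed and without Vortex replicate 2, and in Vortex against HSS Tap2 was -0.066 to 0.270 and Psmb10 -0.357 to 0.218 with 1 library left out. The log2 immunoproteasome ratio was 0.96 to 1.09 in HSS against PSS, 0.39 to 0.67 in Vortex against PSS and -0.64 to -0.37 in Vortex against HSS with 1 library left out, and 0.19 in the last when the log2 ratios of the 3 pairs were averaged. Psmb8, with 3 to 10 counts in HSS and PSS libraries, is limited by depth.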
